A study of Homo sapiens with 10 samples.

Results

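Clone A1 is a SAMHD1 knock-out (KO) line, and it was compared with its wild-type (WT) parent in 4 experiments. Of the 10 RNA sequencing libraries, the 8 of WT and clone A1 are described, 1 of each from experiments 10, 11, 15 and 16, and the 2 libraries of clone A2 are left aside except for values given side by side. All of the cells were labelled T47D, a human breast cancer line, and were grown as spheroids, which are rounded aggregates that form when cells cannot attach. The time in culture before RNA extraction is not given for these libraries. The WT cells are labelled wild type for SAMHD1, and the KO cells had been edited with CRISPR-Cas9 in exon 5 of SAMHD1. Clone A1 grew from edited cells as 1 clone, so what the knock-out changes and what else differs in this clone cannot be told apart. The experiment number was taken as a block, and each clone A1 library was set against the WT library of its own experiment. P-values measure the spread between these 4 experiments.

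SAMHD1 is an enzyme that breaks down deoxynucleoside triphosphates (dNTPs), the building blocks of DNA, and it limits viruses that need dNTPs to copy their genomes. Inherited loss of SAMHD1 causes an inflammatory disease with raised interferon signalling. A clone edited in SAMHD1 can therefore be asked which transcripts differ from WT and whether they do so again each time the spheroids are grown.

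The libraries held 40077369 to 51311482 counts on 13920 genes, and mitochondrial genes took 7.79% to 13.9% of them. Levels are given as CPM, which are counts set relative to TMM-normalized library totals, and differences as log2. Of the luminal markers of breast epithelium, several were near 0, against the T47D label, and others were expressed. KRT19 was not among the listed genes, and EPCAM, CDH1 and ESR1, the estrogen receptor gene, stood at 0.345 to 1.68, 0.679 to 2.15 and 0.181 to 1.58 CPM. By level per kilobase of exon in WT, ESR1 ranked 13524 of 13700 genes, CDH1 12905 and KRT18 2469. The luminal factors GATA3 and FOXA1 were expressed, at 17.7 to 24.5 CPM (rank 5854) and 14.002 to 26.6 CPM (rank 7808). VIM, the gene of vimentin, ranked 103, with 1206 to 1504 CPM. CDH2 had 117 to 158 CPM and ZEB1 57.1 to 68.8 CPM, and like VIM they were named after their values were seen. Of the basal markers 2 of 6 were listed, ACTA2 and OXTR, at 22.1 to 58.6 and 2.57 to 3.33 CPM. Of the leukocyte markers 1 of 6 was listed, CD14, at no more than 0.808 CPM, and of the endothelial markers 2 of 5, KDR and VWF, at no more than 1.68 CPM. The summed luminal markers were 93.4 to 112 CPM in WT and 86.9 to 97.0 CPM in clone A1. The cells are therefore called by their labels only, and all results below are for cells of this kind.

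SAMHD1 (NCBI gene 25939, chromosome 20) was lower in clone A1 in each of the 4 experiments. The WT libraries of experiments 10, 11, 15 and 16 held 53.5, 55.2, 49.4 and 55.98 CPM. In clone A1 it had 22.4, 22.8, 6.40 and 6.12 CPM in the same order. The groups did not overlap, and the transcript was lowest in clone A1 of experiments 15 and 16. The difference was −1.26 and −1.27 in experiments 10 and 11 and −2.94 and −3.18 in experiments 15 and 16 on the log2 scale. Over the 4 pairs the log2 fold change was −2.08 (SE 0.50), which did not pass the edgeR test (adjusted p = 0.231), while DESeq2 called it (adjusted p = 0.00218). The spread that the test weighs lay between the experiment pairs. Experiments 10 and 11 on their own gave −1.27 (SE 0.094, edgeR without the block, adjusted p = 1.69e-05). Experiments 15 and 16 gave −3.08 (SE 0.093, adjusted p = 1.21e-12). The difference between the 2 values was −1.80 (SE 0.12, edgeR interaction with the block, adjusted p = 6.07e-11). Counts per gene do not show whether the edited transcript makes a protein, and in bulk RNA fewer cells with a transcript and less of it per cell cannot be told apart.

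**Figure D1:**
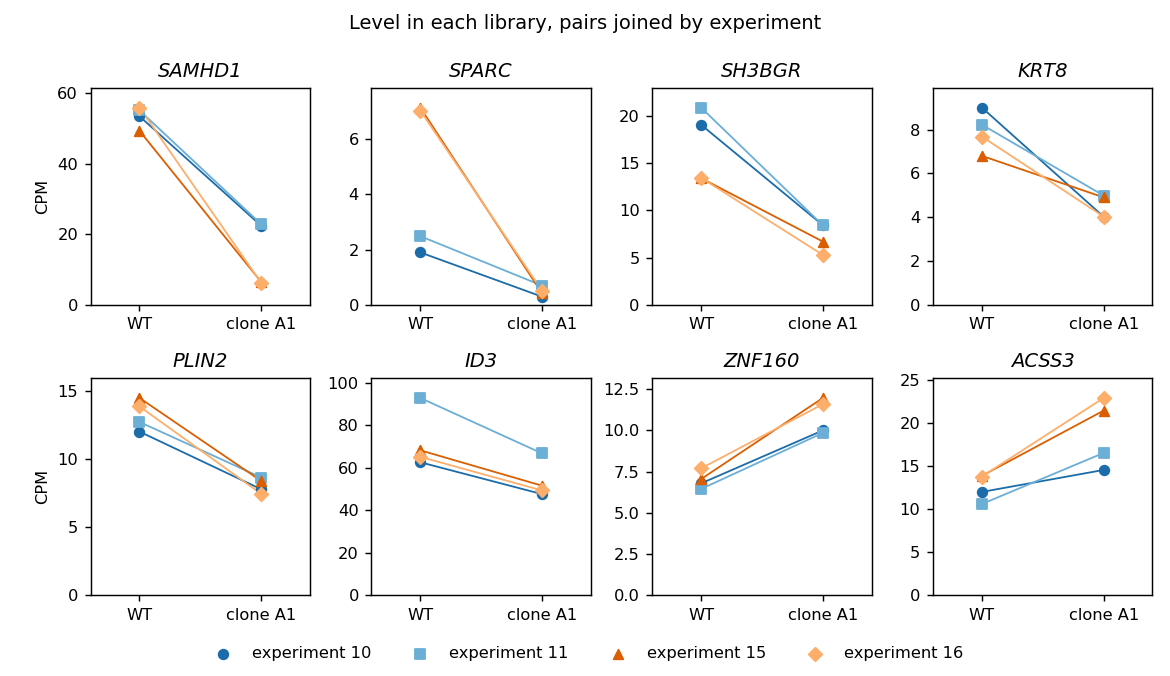
CPM (vertical axes, from 0) of 8 genes in WT and clone A1, 1 point for each library, with the libraries of an experiment joined by a line. The lines fall for SAMHD1, SPARC, SH3BGR, KRT8, PLIN2 and ID3 and climb for ZNF160 and ACSS3 in each of the 4 experiments, and SAMHD1 falls to about 6 CPM in experiments 15 and 16 and to about 22 CPM in experiments 10 and 11.

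Across all genes, 26 were differentially expressed genes (DEGs) with an edgeR adjusted p under 0.05, which is 0.187% of the 13920 tested. Of these 6 were higher in clone A1 (0.0431%) and 20 lower (0.144%), and each had the same direction in all 4 pairs. In 11 DEGs, 9 lower and 2 higher, the 4 clone A1 values did not overlap those of WT, against 2.71% of all genes (1.52% with clone A1 below WT and 1.19% above). At an unadjusted p under 0.05 there were 2303 genes (16.5%). The tools differed in how many they called, since DESeq2 called 274 genes (2.18% of those it gave an adjusted p, 1.69% in the lower direction) and limma-trend 47 (0.338%), and both lists held all 26. With no block, 0 genes passed in edgeR and 493 had an unadjusted p under 0.05. Leaving out experiment 10 raised the count to 88, and leaving out experiment 11, 15 or 16 lowered it to 3, 5 and 4. The absolute log2 fold change of the 26 had a median of 0.41 and a range of 0.29 to 3.14. In simulated data this edgeR fit with the block made more false calls than its adjusted threshold allows.

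A single direction in all 4 pairs was far more common than a call. It was seen in 3321 genes (23.9%), of which 1661 were higher and 1660 lower in clone A1. Most of these differences were small, with a median of 0.045 for the smallest of a gene's 4 differences. Only 32 genes, 9 higher and 23 lower, differed by over 0.5 in each pair, and 16 of them had under 1 CPM.

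**Figure D2:**
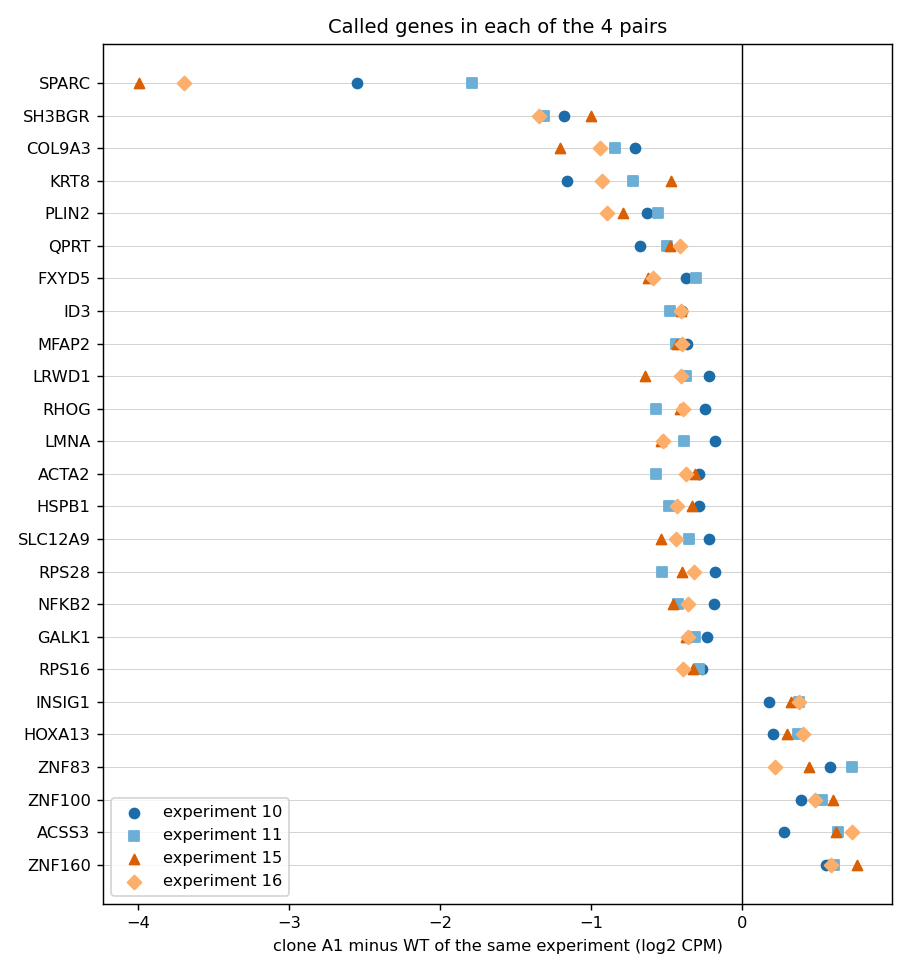
Difference in log2 CPM between clone A1 and WT of the same experiment (horizontal axis) for the DEGs reported here, with 1 symbol for each of the 4 experiments and genes in order of log2 fold change. The lower genes lie left of 0 and the 6 higher genes right of 0 in each experiment, and SPARC spans the widest range, from −1.79 to −3.99.

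These calls moved with the GC content of the transcripts. The longest GENCODE transcript had a median GC content of 59.9% in the 20 lower DEGs and 41.7% in the 6 higher ones, against 48.1% in all genes. With the GC trend of each library removed in the same fit with the block, 3 genes were called, SH3BGR, PLIN2 and ID3, all lower. All 26 kept 1 direction in the 4 pairs after that step, and their log2 fold changes lay between −3.16 and 0.58. Several of the 23 genes that lost the call kept their size, among them SPARC (−3.14 before and −3.16 after, adjusted p = 0.0742), ACTA2 (−0.38 and −0.40, 0.0775), RPS16 (−0.31 and −0.31, 0.0775) and ZNF160 (0.63 and 0.58, 0.0775), while GALK1 went from −0.32 to −0.20 (0.216). The part of GC content in the 23 calls was not tested beyond this edgeR fit, which was chosen after the GC content was seen.

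The largest change was that of SPARC, which encodes a secreted protein that binds collagen. The 4 WT libraries, from experiment 10 to 16, held 1.90, 2.49, 7.15 and 7.04 CPM of SPARC. In clone A1 it had 0.288, 0.690, 0.408 and 0.502 CPM. All 4 clone A1 libraries lay below all 4 WT libraries, and WT itself was higher in experiments 15 and 16. SPARC was thus 8.80-fold lower in clone A1 (log2 −3.14, SE 0.35, edgeR adjusted p = 0.0322). SPARC was the 1 DEG whose change differed between the experiment pairs (−2.21 against −3.96, edgeR interaction adjusted p = 0.00576).

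Other lower DEGs of the cell surface and matrix were COL9A3, MFAP2 and FXYD5. COL9A3, a chain of a cartilage collagen, had 4.93, 5.98, 4.398 and 4.23 CPM in WT and 3.01, 3.32, 1.88 and 2.19 CPM in clone A1. MFAP2, a protein of elastic microfibrils, had 27.96, 32.5, 31.3 and 28.6 CPM in WT and 21.8, 24.0, 23.2 and 21.7 CPM in clone A1. Neither gene overlapped between the groups. The summed fibroblast markers were also lower, 25.3 to 28.6 CPM in WT and 18.8 to 22.8 CPM in clone A1, with 3 of 6 listed and COL1A2, DCN and LUM not listed. Of the 3, COL3A1 made up most of this difference (mean 12.7 CPM in WT and 7.56 CPM in clone A1) and was the 1 marker lower in all 4 pairs, and the part of these markers in these changes was not tested. FXYD5, which encodes a small membrane protein that acts on the sodium pump, fell by 0.47 in log2 units (SE 0.066, adjusted p = 0.0325 with edgeR), and its groups overlapped, with both lower in experiments 15 and 16. Log2 fold changes were −0.93 for COL9A3 (SE 0.14, edgeR adjusted p = 0.0423) and −0.41 for MFAP2 (SE 0.056, adjusted p = 0.0322).

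Genes of the cytoskeleton and of the nuclear envelope were also among the lower DEGs. KRT8, a keratin of simple epithelium, had 9.004, 8.22, 6.80 and 7.68 CPM in WT and 4.01, 4.98, 4.90 and 4.02 CPM in clone A1. Its groups did not overlap, and KRT8 changed by −0.82 in log2 (SE 0.13, adjusted p = 0.0423 with edgeR). KRT18, its filament partner, had the same direction in the 4 pairs without passing the test (log2 fold change −0.27, edgeR adjusted p = 0.0584). RHOG, a small GTPase that acts on actin, had 27.4, 33.9, 30.8 and 28.4 CPM in WT and 23.1, 22.9, 23.2 and 21.6 CPM in clone A1, again without overlap. ACTA2, smooth muscle actin, and LMNA, which encodes the nuclear lamins A and C, fell by 0.38 and 0.40 on the log2 scale, and in both the groups overlapped. LMNA ranged from 95.05 to 168 CPM in WT and from 66.3 to 128 CPM in clone A1, with its lower values in experiments 15 and 16 in both groups.

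SH3BGR, which encodes a protein with a proline-rich SH3-binding motif, had the smallest edgeR adjusted p of all genes. It had 19.1, 20.9, 13.4 and 13.5 CPM in WT and 8.42, 8.41, 6.69 and 5.28 CPM in clone A1. The highest clone A1 value lay well below the lowest WT value, and the 4 differences lay between −0.999 and −1.34. This made SH3BGR 2.32-fold lower (log2 −1.21, SE 0.087, adjusted p = 3.36e-04 with edgeR), and −1.25 with the GC trend removed (adjusted p = 8.20e-04). It was also called when any 1 of the 4 experiments was left out.

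Among genes of lipid and small-molecule metabolism, some were lower and some higher. PLIN2, which coats lipid droplets, had 11.998, 12.7, 14.5 and 13.8 CPM in WT and 7.76, 8.63, 8.37 and 7.42 CPM in clone A1. The groups were apart in every pair, and PLIN2 changed by −0.72 in log2 (SE 0.089, adjusted p = 0.0275 with edgeR) and by −0.73 with the GC trend removed (adjusted p = 0.0391). QPRT, an enzyme of NAD synthesis from tryptophan, fell by 0.51 (SE 0.079, edgeR adjusted p = 0.0423), and GALK1, which phosphorylates galactose, by 0.32 on the log2 scale. GALK1 had 47.4 to 53.3 CPM in WT and 37.0 to 43.9 CPM in clone A1, which do not overlap. It is outside the rule for named genes and was added after its values were seen. SLC12A9, a member of the cation-chloride cotransporter family, fell by 0.38 (SE 0.061). It lies at 100 to 110 Mb of chromosome 7, where 51.0% of 98 genes were lower in all 4 pairs (11.9% of all genes). GALK1 lies at 70 to 80 Mb of chromosome 17, where 58.8% of 97 genes were lower throughout. The part of these regions in the changes was not tested.

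INSIG1, which holds the sterol sensor SCAP in the endoplasmic reticulum, had 131, 80.0, 183 and 183 CPM in WT and 149, 104, 229 and 238 CPM in clone A1. It was higher in each pair, while the experiments differed more than the groups did. ACSS3, a mitochondrial enzyme that activates short-chain fatty acids, had 11.998, 10.6, 13.9 and 13.8 CPM in WT and 14.6, 16.5, 21.5 and 22.9 CPM in clone A1, without overlap. The log2 fold changes were 0.32 for INSIG1 (SE 0.051) and 0.57 for ACSS3 (SE 0.085), both with an edgeR adjusted p of 0.0423.

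Regulators of transcription and of signalling made up another group. ID3, which blocks DNA binding by helix-loop-helix factors and is a known target of BMP signalling, had 62.5, 92.8, 68.2 and 65.1 CPM in WT and 47.5, 66.7, 51.5 and 49.2 CPM in clone A1. Its 4 differences were −0.40, −0.48, −0.40 and −0.40, while the level itself was highest in experiment 11 in both groups. ID3 fell by 0.42 (SE 0.047, edgeR adjusted p = 0.0167), and by 0.36 with the GC trend removed (adjusted p = 0.0280). NFKB2, a subunit of nuclear factor kappa B, fell by 0.35, and LRWD1, which binds the origin recognition complex, by 0.41 on the log2 scale. LRWD1 lies in the same 100 to 110 Mb of chromosome 7 as SLC12A9. NFKB2 lies at 100 to 110 Mb of chromosome 10, where 37.1% of 70 genes were lower in all 4 pairs. HOXA13, a homeobox factor of distal limb and hindgut, had 52.2, 38.6, 77.2 and 79.7 CPM in WT and 60.3, 49.99, 95.3 and 106 CPM in clone A1, and its log2 fold change was 0.32. HSPB1, a small heat shock protein, had 51.2, 71.2, 56.2 and 51.8 CPM in WT and 42.0, 51.0, 44.6 and 38.4 CPM in clone A1, with no overlap and a change of −0.38 in log2 (SE 0.053, adjusted p = 0.0322 with edgeR).

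The other higher DEGs were 3 zinc finger genes of chromosome 19, whose proteins belong to the large family of C2H2 zinc finger proteins. ZNF160 had 6.79, 6.44, 7.05 and 7.70 CPM in WT and 10.01, 9.86, 11.98 and 11.6 CPM in clone A1, without overlap. ZNF100 had 11.8, 10.99, 13.9 and 16.1 CPM in WT and 15.5, 15.9, 21.2 and 22.6 CPM in clone A1. ZNF83 had 19.6, 15.5, 27.3 and 27.3 CPM in WT and 29.5, 25.7, 37.2 and 31.8 CPM in clone A1. All 3 were higher in each pair, by 0.63 (SE 0.088), 0.51 (SE 0.070) and 0.49 (SE 0.079) on the log2 scale. Of all 433 listed genes of the ZNF series 58 (13.4%) were higher and 48 (11.1%) lower in the 4 pairs, close to the 11.9% of all genes in either direction. Zinc finger paralogs are alike in sequence, so reads may have been split among them.

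The promoters of the 3 genes are printed since all 3 were called higher, which is how they were picked. Each line holds the 250 bases before the transcript start on the gene's own strand, from RefSeq on GRCh38.p14, at chr19:52690497-52690746 (ZNF83), chr19:21767580-21767829 (ZNF100) and chr19:53103423-53103672 (ZNF160), all on the minus strand. Capitals mark the GC box (GGGCGG) and the CCAAT box (CCAAT) on either strand.
ZNF83: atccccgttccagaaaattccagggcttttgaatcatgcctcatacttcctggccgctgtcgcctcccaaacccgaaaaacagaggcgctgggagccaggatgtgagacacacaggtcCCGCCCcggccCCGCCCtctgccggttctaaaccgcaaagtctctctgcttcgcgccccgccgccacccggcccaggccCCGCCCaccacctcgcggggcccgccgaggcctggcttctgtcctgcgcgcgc
ZNF100: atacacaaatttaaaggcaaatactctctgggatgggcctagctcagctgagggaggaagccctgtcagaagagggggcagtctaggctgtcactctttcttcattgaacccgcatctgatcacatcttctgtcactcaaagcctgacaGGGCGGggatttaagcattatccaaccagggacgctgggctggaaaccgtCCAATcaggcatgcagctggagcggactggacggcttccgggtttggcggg
ZNF160: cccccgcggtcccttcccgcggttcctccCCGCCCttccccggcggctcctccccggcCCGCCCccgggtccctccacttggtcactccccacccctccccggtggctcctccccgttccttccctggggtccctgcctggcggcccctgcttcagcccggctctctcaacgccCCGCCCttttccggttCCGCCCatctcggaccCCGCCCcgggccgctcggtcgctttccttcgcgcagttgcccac
The GC box was found 3, 1 and 5 times in these windows, and the CCAAT box 1 time, in ZNF100. Of the 26 DEGs 21 had a promoter in the table. The GC box was in 5 of 5 windows of higher DEGs and 10 of 16 of lower DEGs, against 67.2% of the 11366 windows of all listed genes. The CCAAT box was in 3 of 5 and 2 of 16, against 34.9%. The share with a GC box was 68.1% in genes higher in all 4 pairs and 70.2% in genes lower in all 4 pairs.

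Of the 84 listed genes of the cytosolic ribosome 3 were DEGs, all lower, and 42 kept the lower direction in all 4 pairs. RPS16 had 961, 1060.4, 793 and 752 CPM in WT and 800, 872, 636 and 575 CPM in clone A1. RPS28 had 303, 444, 258 and 227 CPM in WT and 268, 308, 196 and 182 CPM in clone A1. In each pair clone A1 was lower, while the ranges of the groups overlapped, and both groups had their lower values in experiments 15 and 16. The log2 fold changes were −0.31 (SE 0.047) for RPS16 and −0.35 (SE 0.059) for RPS28, with edgeR adjusted p-values of 0.0423 and 0.0456.

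Of the 84 genes 15 were lower with DESeq2, where 1.69% of all genes were, and the share of lower edgeR DEGs over all genes was 0.144%. In the 4 pairs 42 (50%) were lower throughout, 1 was higher and the other 41 changed sign, where 11.9% of all genes were lower throughout. Within experiments 15 and 16 edgeR called 42 lower and 6 higher, where 14.4% of all genes were lower and 13.4% higher. Their median differences were −0.085, −0.061, −0.076 and −0.13 in experiments 10, 11, 15 and 16, where the medians of all genes were −0.00025, −0.00026, 0.0070 and 0.0041. Their transcripts had a median GC content of 47.9%, close to that of all genes. With the GC trend removed, 44 were lower and 0 higher in the 4 pairs, against 9.49% lower for all genes. Ribosomal protein genes have many pseudogenes, which can take part of their reads.

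Both RPS16 and RPS28 lie on chromosome 19, where 12 of 13 listed ribosomal protein genes were lower in all 4 pairs, against 30 of 71 on other chromosomes. The medians on chromosome 19 were −0.18, −0.18, −0.31 and −0.32 in the 4 experiments, and those elsewhere −0.067, −0.044, −0.036 and −0.12. The promoter windows of RPS16 (chr19:39435950-39436199, minus strand) and RPS28 (chr19:8321246-8321495, plus strand) are set beside those of the zinc finger genes, with the same marks.
RPS16: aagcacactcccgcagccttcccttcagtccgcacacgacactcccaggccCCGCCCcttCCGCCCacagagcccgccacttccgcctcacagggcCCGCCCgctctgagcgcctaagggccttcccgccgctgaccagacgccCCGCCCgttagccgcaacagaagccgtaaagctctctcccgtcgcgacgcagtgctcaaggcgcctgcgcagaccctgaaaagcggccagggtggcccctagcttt
RPS28: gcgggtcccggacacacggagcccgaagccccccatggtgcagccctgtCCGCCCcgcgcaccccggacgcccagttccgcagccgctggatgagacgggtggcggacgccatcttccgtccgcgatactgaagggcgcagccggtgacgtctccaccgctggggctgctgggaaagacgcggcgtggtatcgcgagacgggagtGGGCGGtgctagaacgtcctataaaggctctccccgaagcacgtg
They held the GC box 4 and 2 times and no CCAAT box. The GC content of these windows was 68.8% and 69.6%, and it was 67.2%, 54.4% and 75.6% in ZNF83, ZNF100 and ZNF160.

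**Figure D3:**
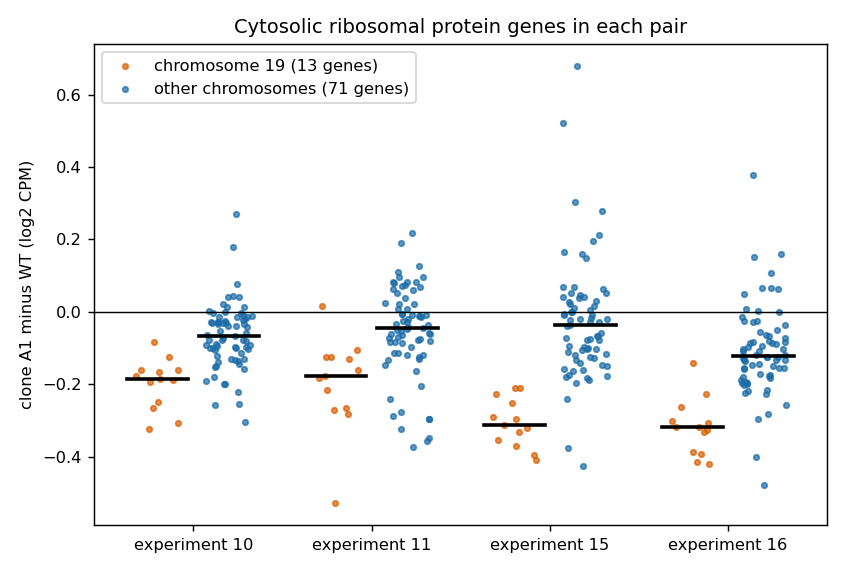
Difference in log2 CPM between clone A1 and WT (vertical axis) for 84 cytosolic ribosomal protein genes in each of the 4 experiments, 1 point for each gene, split into the 13 on chromosome 19 and the 71 elsewhere. Black bars are medians, which lie below 0 in each experiment and lower on chromosome 19 (−0.18 to −0.32) than elsewhere (−0.036 to −0.12).

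Chromosome 19 as a whole was low in clone A1. Of its 970 listed genes 37.3% were lower and 2.99% higher in all 4 pairs, and the median differences were −0.039, −0.16, −0.20 and −0.16. Among them 4 DEGs were lower, FXYD5, RPS16 and RPS28 among them, and the 3 zinc finger DEGs were higher. The 202 zinc finger genes of the ZNF series there had a median GC content of 42.3%, and 10.9% were higher and 17.8% lower in all 4 pairs. The other 768 genes had a median GC content of 60.2%, and 0.911% were higher and 42.4% lower. With the GC trend removed, 19.6% of the genes of the chromosome were lower and 4.02% higher in all 4 pairs, with medians of 0.0043, −0.025, −0.15 and −0.14. After that step the medians were near 0 in experiments 10 and 11 and below 0 in experiments 15 and 16, while the share of genes lower in all 4 pairs stayed above the 9.49% of all genes. Over 154 regions of 20 Mb, 0 had medians beyond 0.1 in 1 direction in all 4 pairs.

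The same split by GC content held for all genes with 1 direction in the 4 pairs. The median GC content was 42.1% for the 1661 higher genes and 57.9% for the 1660 lower genes. With genes set in 5 equal bins, in the bin of lowest GC content (29.2% to 40.5%), 22.9% were higher and 1.68% lower in all 4 pairs. In the bin of highest GC content (58.3% to 76.0%), 1.71% were higher and 28.4% lower. Between these bins the median difference was widest in experiment 11, at 0.17 for the lowest and −0.19 for the highest bin, and narrowest in experiment 16, at 0.019 and −0.029. The higher genes also had longer transcripts, with a median of 4898 bases against 3162 in the lower ones. With the GC trend removed, 2678 genes had 1 direction in the 4 pairs, 1357 higher and 1321 lower, and 1890 of them had the same direction before.

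**Figure D4:**
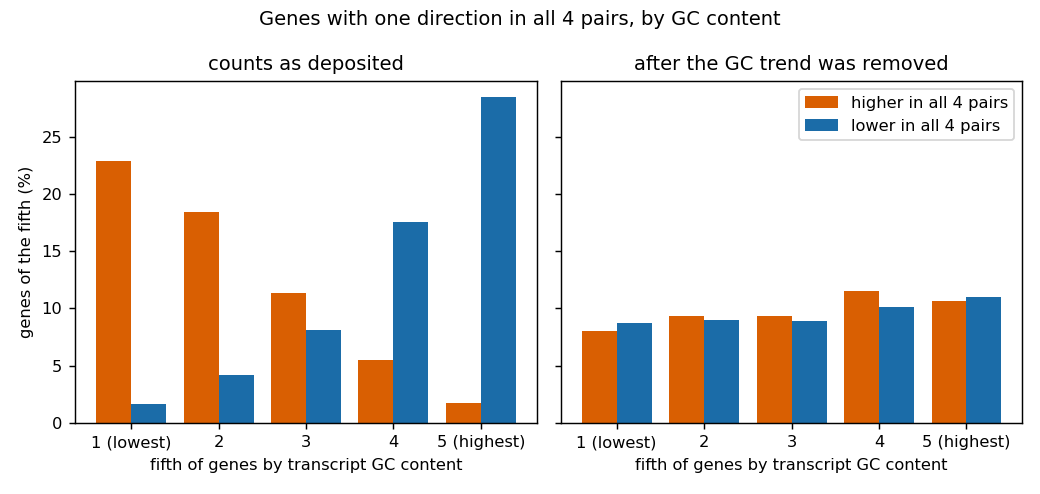
Percent of genes higher (orange) or lower (blue) in clone A1 in all 4 pairs, in 5 equal bins of genes by GC content of the transcript, for the counts as deposited (left) and after the GC trend of each library was removed (right). On the left the share of higher genes drops from 22.9% to 1.71% and that of lower genes climbs from 1.68% to 28.4%, and on the right both lie between 7.98% and 11.5% in each bin. The correction takes out the trend with GC content itself, so the even shares on the right are largely built in.

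The 2 experiment pairs gave unlike numbers of DEGs. Within experiments 10 and 11 edgeR with the block called 229 genes (1.65%), 51 higher (0.366%) and 178 lower (1.28%), and within experiments 15 and 16 it called 3873 (27.8%), 1862 higher (13.4%) and 2011 lower (14.4%). In 1081 genes (7.77%) the interaction test found unlike effects in the 2 experiment pairs, and in 266 without the block and 418 with DESeq2. The number was 2469, 1710, 330 and 418 without experiment 10, 11, 15 and 16. Of the 229 genes 150 (65.5%) had the same direction in experiments 15 and 16, which share no library with experiments 10 and 11, against 54.3% of all genes. The 178 lower ones had a median of −0.44 where they were called and of −0.095 in the other experiments. In the opposite reading, 2317 of 3873 (59.8%) had the same direction in experiments 10 and 11. In clone A2 of experiments 15 and 16, also without a shared library, 124 of the 229 (54.1%) had the same direction, against 49.9% of all genes.

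**Figure D5:**
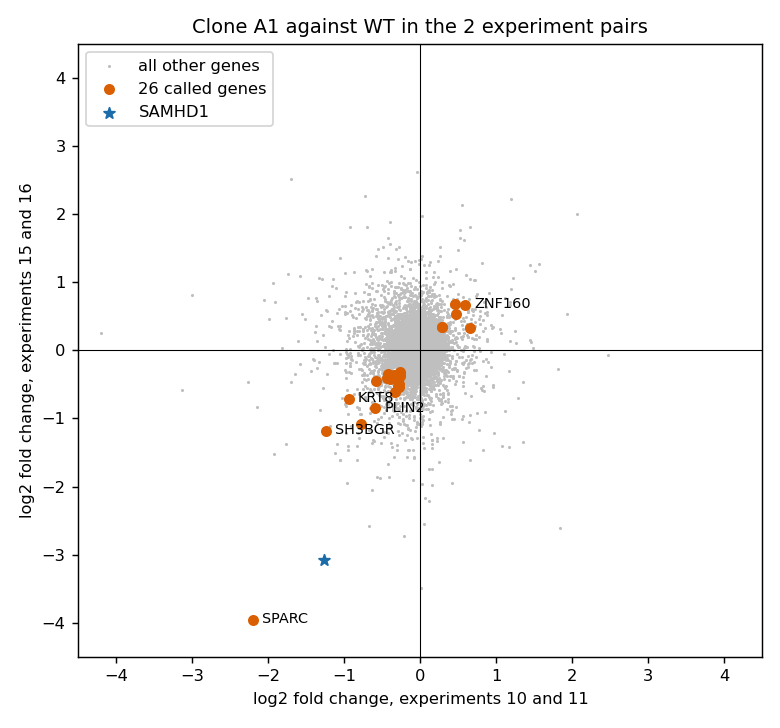
Log2 fold change of clone A1 against WT in experiments 10 and 11 (horizontal axis) and in experiments 15 and 16 (vertical axis), 1 point for each gene, with the 26 DEGs in orange and SAMHD1 as a star. The DEGs lie in the lower left and upper right, SAMHD1 at −1.27 and −3.08 and SPARC at −2.21 and −3.96, most other genes lie around 0, and 1 gene lies outside the axes.

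In both experiment pairs 130 genes were called, which is 56.8% of the 229 and 3.36% of the 3873, and 91 of them had 1 direction, 70 lower and 21 higher, while 39 had opposite directions. The calls within an experiment pair rest on 2 libraries a group and on the block, and without it 229 became 12 and 3873 became 1852, so most of the calls in experiments 10 and 11 were lost. The 91 held 23 of the 26 DEGs, which were called on these same libraries, so this overlap is not independent evidence. Besides these they held SAMHD1, and genes of different functions that did not pass over the 4 pairs. LGALS1, which encodes galectin-1, had log2 fold changes of −0.74 and −0.35 in the 2 experiment pairs (edgeR adjusted p over the 4 pairs 0.0603). JUNB, a subunit of the AP-1 factor, had −0.65 and −0.30 (0.0568), and COL17A1, a collagen of epithelial anchoring, had −0.62 and −0.88 (0.0527). TK1, which makes the dTTP precursor from thymidine, had −0.31 and −0.26 (0.0528). Of the higher genes, ASNS, the asparagine synthetase, had 0.42 and 0.29 (0.0858), and ND2, a mitochondrial subunit of complex I, had 0.25 and 0.42 (0.0730). The mitochondrial share of the counts, 8.48% against 7.79%, 8.18% against 8.41%, 13.9% against 10.7% and 10.7% against 9.92% in clone A1 and WT of the 4 experiments, was higher in clone A1 in 3 of 4 pairs, and its part in the ND2 values was not tested. LGALS1 is outside the rule for named genes and was picked after its values were seen.

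Enzymes of the dNTP pool, on which SAMHD1 acts, were read as a list. Of 25 listed genes 0 were DEGs with edgeR, and 2 were lower with DESeq2, SAMHD1 and TK1. In all 4 pairs 4 were lower, SAMHD1, TK1, GUK1 and NT5C, and 2 were higher, RRM2 among them, which is 16% and 8% of the list where 11.9% of all genes were lower and 11.9% higher, and SAMHD1 is the edited gene itself. TK1 had 83.9, 97.5, 79.1 and 78.5 CPM in WT and 71.6, 74.1, 68.0 and 64.2 CPM in clone A1, which do not overlap. RRM2, the small subunit of ribonucleotide reductase, changed by 0.064 in log2 (adjusted p = 0.520 with edgeR).

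Of the 35 listed interferon-stimulated genes 0 were DEGs with edgeR or DESeq2, 0 were higher in all 4 pairs and 4 were lower, BST2, SAMD9, TRIM22 and UBE2L6, a share near the 11.9% of all genes lower throughout. BST2, which tethers virus particles to the cell, had 3.08, 2.97, 2.40 and 2.01 CPM in WT and 1.94, 1.88, 1.29 and 1.05 CPM in clone A1. Its values did not overlap, and BST2 differed by −0.78 in log2 (SE 0.17, adjusted p = 0.0858 with edgeR). The nucleic acid sensing list had 18 listed genes and 0 DEGs, with 2 higher and 2 lower in all 4 pairs.

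The 6 genes named by the study under IL-12 family signalling, CNN2, TYK2, TCP1, GSTO1, ARF1 and RPLP0, were chosen by it on libraries that include some of these. With edgeR 0 of the 6 were DEGs over the 4 pairs, and 0 with DESeq2. Within experiments 15 and 16 all 6 were called lower, where 14.4% of all genes were, and within experiments 10 and 11 0 were. CNN2, which encodes calponin 2, had the largest of these changes, −1.01 in experiments 15 and 16 (edgeR adjusted p = 5.90e-33). Since the study chose them on these samples, their direction there is not independent evidence. Their median differences were 0.042, 0.018, −0.28 and −0.27 in experiments 10, 11, 15 and 16, and 2 of the 6, ARF1 and RPLP0, were lower in all 4 pairs. CXCL8, the interleukin 8 gene, did not keep 1 direction, with log2 fold changes of −0.86 and 0.85 in the experiment pairs. With edgeR and the block it passed within experiments 15 and 16 (adjusted p = 1.81e-04) and not within experiments 10 and 11 (0.172). For this cytokine the study reports lower RNA and protein in knock-out spheroids. The CXCL8 values of experiments 15 and 16 go the other way, and the cause was not tested. By quantitative PCR in additional spheroids the study also reports lower CNN2 and TCP1. IL12A, which encodes the p35 subunit, passed neither over the 4 pairs nor within experiments 15 and 16.

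Other lists had few or no DEGs. Over all genes 11.9% were lower and 11.9% higher throughout the 4 pairs, and DESeq2 called 1.69% lower and 0.493% higher. Of 79 nuclear genes of oxidative phosphorylation 18 (22.8%) were lower and 3 higher in all 4 pairs, and 0 were DEGs with edgeR and 3 with DESeq2, all lower. Of 77 mitochondrial ribosomal protein genes 14 (18.2%) were lower and 5 (6.49%) higher throughout, with 4 lower by DESeq2. Of 35 hypoxia and glycolysis genes 7 (20%) were higher and 1 lower throughout, with 0 DEGs by edgeR and 1 by DESeq2, PGK1. Their median difference was −0.052 in experiment 10 and 0.17, 0.15 and 0.18 in the other 3. Of 32 genes of the unfolded protein and ATF4 response 8 (25.0%) were higher and 2 lower throughout, ASNS with the largest change among them. Of 16 mesenchymal genes 2 were DEGs, SPARC and ACTA2. In all 4 pairs 4 (25%) were lower, SPARC, ACTA2, MMP2 and TWIST2, and 2 (12.5%) were higher, CDH2 and ZEB2, and the median differences were −0.047, −0.081, −0.044 and −0.062. The 55 cell cycle and DNA replication genes and the 49 DNA repair genes held 0 DEGs with edgeR, with 8 higher and 8 lower, and 8 higher and 5 lower, in all 4 pairs.

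Clone A2 shares its WT libraries with clone A1 in experiments 15 and 16, so its values are only set beside those of clone A1. For the lower DEGs other than PLIN2 and QPRT, the log2 fold change of clone A2 against WT lay between −1.95 (SH3BGR) and −0.13 (NFKB2), and for the higher DEGs other than INSIG1 between 0.37 (HOXA13) and 0.72 (ZNF160). SH3BGR had 4.19 and 2.91 CPM in clone A2, where clone A1 had 6.69 and 5.28 CPM. SPARC had 3.63 and 2.71 CPM in clone A2, between the 7.15 and 7.04 CPM of WT and the 0.408 and 0.502 CPM of clone A1. PLIN2 had 15.8 and 15.9 CPM there, where WT had 14.5 and 13.8 CPM and clone A1 8.37 and 7.42 CPM. QPRT had 26.8 and 24.9 CPM in clone A2, above the 16.8 and 16.7 CPM of WT, while clone A1 had 12.1 and 12.6 CPM. INSIG1 had 163 and 173 CPM in clone A2, below the 183 and 183 CPM of WT, while clone A1 had 229 and 238 CPM.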

How the data were processed

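Per the labels and the study's methods, the authors made libraries with a TruSeq Stranded mRNA kit, used HISAT2 against GRCh38, and dropped every gene that had a 0 in any library. The submitters' processing notes also name StringTie, and the counting program and its strand setting are not given in the sources used here. The deposited values are raw counts per NCBI gene (lowest 1). Of 13920 genes 13885 were matched to NCBI's GRCh38.p14 table, and in 118 the mean count was under 10. Total counts of 40077369 to 51311482 leave little counting error except in genes of low CPM.

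Counts were fitted in R 4.3.3 with edgeR 4.0.16 (TMM, robust quasi-likelihood test, experiment as block) and adjusted by Benjamini-Hochberg at 0.05. Alternatives were DESeq2 1.42.0, limma 3.58.1, RLE normalization, filters on low counts, no block, each experiment left out, and each experiment pair alone. A loess of each library on GC content, entered as an offset, was added after the data were seen. The scripts were tested on simulated data with known changes, where the fits with the block made more false calls than the adjusted threshold allows with each of the 3 tools, most of all within an experiment pair, and edgeR without the block made none. Differences used log2 CPM with a prior count of 2. The labels give WT and clone A1 the same experiment numbers, and libraries of 1 experiment deviated together (r = 0.468, 0.474, 0.526 and 0.524). Within an experiment pair, with the mean of that pair removed too, r was 0.0846 and 0.134.

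The comparison, the 47 gene lists and the rule for named genes were chosen with earlier results of these data known. The rule took SAMHD1, up to 15 DEGs in each direction by fold change (mean of at least 1 CPM, same sign in 4 pairs), the 5 in each direction whose smallest difference was largest, the 5 most abundant DEGs, the genes the study names, and in each list up to 4 called members, or the 2 with the largest fold change of 1 sign where none was called. Some genes covered by this rule or by the lists are not reported here. GC content was known for 98.5% of genes. Raw reads were not analysed here.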

Additional observations from a re-analysis of the deposited data

Results flagged for a closer look

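In 10 named genes the clone A1 effect in experiments 15 and 16 differed from that in experiments 10 and 11, by the edgeR interaction test with the block. The difference on the log2 scale was −1.80 for SAMHD1 (adjusted p = 6.07e-11), −1.76 for SPARC (0.00576), −1.11 for CNN2 (2.17e-07) and −1.24 for COL3A1 (2.71e-05). It was −0.35 for TCP1 (0.00162), −0.35 for GSTO1 (0.00841), −0.29 for TRIM28 (0.00958) and −0.28 for PSMC2 (0.0281). It was 1.71 for CXCL8 (0.00221) and 0.35 for NRARP (0.0180). SAMHD1, SPARC, COL3A1, TRIM28 and PSMC2 had log2 fold changes below 0 in both experiment pairs, and further below 0 in experiments 15 and 16. CNN2, TCP1 and GSTO1 were near or above 0 in experiments 10 and 11 (0.11, 0.13 and 0.013) and lower in experiments 15 and 16 (−1.01, −0.23 and −0.35), and CXCL8 went from −0.86 to 0.85.

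In 5 groups of 4 libraries, of 190 looked at, 1 WT library stood apart from the other 3 by Dixon's test at the 95% level, which chance alone does in about 1 of 20 groups. WT of experiment 11 had 719 CPM of CALR, a chaperone of the endoplasmic reticulum, against 626 to 638 CPM in the other WT libraries. The same library had 686 CPM of PGK1 against 890 to 921 CPM, 74.4 CPM of VEGFA against 81.3 to 81.5 CPM and 6.10 CPM of EFNA1 against 4.58 to 4.80 CPM. WT of experiment 10 had 4.55 CPM of UBE2L6 against 5.02 to 5.07 CPM.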

How the results depend on the processing

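The main count of 26 genes called, clone A1 against WT, became 0 without the replicate block, 274 with DESeq2 and 47 with limma-trend, 3 to 88 when 1 experiment was left out, 229 in experiments 10 and 11 alone, 3873 in experiments 15 and 16 alone, and 3 with the GC correction. Counting only called genes with the same sign in every pair that entered the fit (4, or 3 or 2 where experiments were left out), there were 0, 258 and 47 in the same order, 3 to 88, 229, 3852 and 3. The 26 genes were all called with RLE normalization, DESeq2, limma-trend and both filters on low counts, and 22, 2, 5 and 3 of them without experiments 10, 11, 15 and 16. For SAMHD1 the log2 fold change was −2.17 with DESeq2, −1.27 in experiments 10 and 11 alone and −3.08 in experiments 15 and 16 alone, each past the threshold, and it did not pass with limma-trend (adjusted p = 0.213), the GC correction (0.320), or no block (0.954). Genes whose clone A1 effect differed between experiment pairs numbered 1081, 266 with no replicate block, 418 with DESeq2 and 330 to 2469 when 1 experiment was left out. Genes called within experiments 10 and 11 fell from 229 to 12 with no replicate block and 24 with DESeq2, and within experiments 15 and 16 from 3873 to 1852 and 1157. With 10 Mb windows 1 of the chromosome regions lay beyond 0.1 in all 4 pairs, 70 to 80 Mb of chromosome 17 (97 genes, medians −0.10, −0.19, −0.15 and −0.14), and 0 of 154 with 20 Mb windows. Among the named genes, directions reversed for 5 that had not passed the test, and over all genes 39 were called in opposite directions in the 2 experiment pairs. They were CNN2 (0.11), TCP1 (0.13), GSTO1 (0.013) and CXCL8 (−0.86) in experiments 10 and 11 alone, TCP1 (−0.12 to 0.013), CXCL8 (−0.29 to 0.45) and IL12A (−0.075 to 0.087) when 1 experiment was left out, with IL12A −0.051 in experiments 15 and 16 alone and −0.039 with the GC correction. The cause was not tested. Clone A1 is 1 clone, and genes under 1 CPM have wide counting error.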

Other observations

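The replication-dependent histone genes, whose transcripts lack a poly(A) tail, were listed at 41 genes with 0 DEGs by edgeR or DESeq2. In all 4 pairs 6 (14.6%) were lower, near the 11.9% of all genes, and 0 higher, and their median differences were −0.20, −0.48, −0.090 and −0.13 in experiments 10, 11, 15 and 16. With the GC trend removed 6 were lower and 1 higher, and the median in experiment 15 was −0.0012. The libraries were made with an mRNA kit, and the part of this in the histone values was not tested.

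Of 35 hypoxia and glycolysis genes 22 were higher and 4 lower in clone A1 within experiments 15 and 16 (edgeR with the block), where 13.4% of all genes were higher and 14.4% lower. Within experiments 10 and 11 0 were called, where 0.366% and 1.28% of all genes were. The interaction test called 3 of the 35, against 7.77% of all genes, so a difference between the experiment pairs was shown for few of them. The 33 clustered protocadherin genes, which encode adhesion molecules of neurons, had 0 DEGs over the 4 pairs, with 2 (6.06%) higher and 6 (18.2%) lower throughout, where 11.9% of all genes were higher and 11.9% lower. Of 23 Notch pathway genes 5 were higher and 2 lower in all 4 pairs, and 7 higher and 1 lower with the GC trend removed, where 9.75% of all genes were higher and 9.49% lower after that step.

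GSTM2, which conjugates glutathione, had 0.495, 0.323, 0.850 and 0.657 CPM in WT and 0.103, 0.108, 0.272 and 0.251 CPM in clone A1. ETNPPL, a phospho-lyase of ethanolamine metabolism picked after its values were seen, had 0.129, 0.202, 0.400 and 0.367 CPM in WT and 0.350, 0.604, 0.953 and 0.799 CPM in clone A1. In each experiment both genes moved by more than 1 on the log2 scale, and neither passed the edgeR test (adjusted p = 0.0663 and 0.0889).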
